A study of Mus musculus with 15 samples.

Results

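The genes described here are 47 mouse genes of the Nrf2 pathway and of antioxidant defence, chosen by name: the regulators Nfe2l2 and Keap1, classical Nrf2 targets, and the enzymes that make, recycle or use glutathione, thioredoxin and NADPH. An array row stood for a gene when that gene was its only annotated symbol, and the row with the highest mean log2 value over the 15 arrays was taken when a gene had several. In all, 44 of the 47 genes had such a row among the 28361 rows of the table. The other 3 (Prdx5, Prdx6 and G6pdx) are not analysed here. The genes were chosen with earlier results of these data known. Shares set beside all rows therefore describe these genes and are no independent test.

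RNA came from 1 lobe of the lung, the inferior right one, of male mice of the inbred strain C57BL/6N, at 24 to 26 g body weight, with 1 Affymetrix array per mouse and 5 mice per group. The H2S ventilated mice received synthetic air with 80 ppm hydrogen sulfide through a rodent ventilator for 6 h, and the air ventilated mice received synthetic air in the same way. The ventilator delivered 12 ml/kg per breath at 80 to 90 breaths per minute with a positive end-expiratory pressure of 2 cmH2O. The control mice were left to breathe on their own, also synthetic air and also for 6 h. All 15 mice, controls included, were anaesthetised with ketamine (90 mg/kg) plus acepromazine (1 mg/kg) and carried an arterial line and a tracheal tube, so what the groups share cannot be read from these comparisons. H2S was given here only together with ventilation, and mice that breathed it spontaneously are not analysed here.

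Nrf2, the product of Nfe2l2, is a transcription factor that Keap1 holds in the cytoplasm and marks for degradation. Electrophiles and oxidants modify cysteines of Keap1, and Nrf2 then accumulates, pairs with a small Maf protein and binds antioxidant response elements near genes for glutathione synthesis, quinone reduction and thioredoxin recycling. Airway epithelium and macrophages of the lung are well known sites of this response. Sulfide belongs to the reactive sulfur species, which can modify cysteines, but neither cysteines nor Nrf2 protein were measured here.

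The deposited values are linear intensities, which were log2 transformed and fitted with limma over all rows and all 15 arrays. A gene was called when its p was at most 0.005, its adjusted p at most 0.1 and its fold change at least 1.7. Adjustment was by Benjamini-Hochberg over the 28361 rows. These thresholds follow the study's methods, except that the study's effect size of at least 1.7 was read here as a fold change of group means. Genes at an adjusted p under 0.05 were counted as well, with no fold minimum, and "rose" and "fell" are used for these. The arrays of a group correlated at 0.984 to 0.994 across rows, which are not independent replicates, and their median intensities were 179.8 to 185 in H2S ventilated, 179 to 187 in air ventilated and 184 to 187 in control mice. The lung markers were present, with the summed intensity of 9 alveolar type II markers at 72506 to 76333 in H2S ventilated, 72165 to 75489 in air ventilated and 70869 to 74589 in control mice. Each sample label ends in a number whose meaning is not given, 1 to 12 for 3 mice and 20 to 28 for 2 mice of every group, and values within these sets are given below. Precision is limited by having 5 arrays per group. In whole tissue, fewer cells of a type and less RNA per cell cannot be told apart.

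With H2S ventilation, 16 of the 44 measured genes rose above control and none fell. These 16 make up 36.4%, where 3.92% of all rows rose and 3.93% fell. Of them, 10 were called (22.7%, against 0.656% of all rows called higher): Hmox1, Nqo1, Cbr3, Akr1b8, Osgin1, Gclc, Gclm, Srxn1, Txnrd1 and Gpx2. In 15 genes (34.1%) every H2S ventilated mouse lay above every control mouse, which held for 4.11% of all rows. The median log2 difference from control over the 44 genes was 0.23, beside 0.00 over all rows, and single genes spanned -0.26 to 2.01. When single mice were left out, the only one of the 10 to lose its call was Gclm, without H2S ventilated mouse 27_28.

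With air ventilation, 9 of the 44 genes rose above control (20.5%, where 1.56% of all rows rose) and none fell, where 1.89% of all rows did. Called among them were 2, Nqo1 and Srxn1 (4.55%, against 0.342% of all rows called higher). CyberT called 3, with Hmox1 added (6.82%, against 0.363% of all rows), and placed 13 at an adjusted p under 0.05, with Hmox1, Akr1b8, Aldh3a1 and Osgin1 added (29.5%, against 2.35% of all rows). The groups did not overlap in 11 genes, all higher with air ventilation (25%, against 2.65% of all rows). The median log2 difference was 0.10, beside 0.01 over all rows. The H2S and air comparisons share their 5 control mice and are therefore not independent.

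Directly between H2S and air ventilation, 1 gene was called, Osgin1, which is 2.27% of the genes and stands beside 0.0599% of all rows called higher. In the limma fit with no covariate, no gene passed an adjusted p under 0.05 in either direction, where 0.0705% of all rows were higher and 0.00705% lower. Osgin1 passed in limma with the label number set (adjusted p = 0.00393) or runs of 4 label numbers (adjusted p = 0.0432) as a block. It did not pass with only the 2 groups compared (adjusted p = 0.176). At an unadjusted p under 0.05 there were 10, all higher with H2S (22.7%, against 2.97% of all rows higher at that level). CyberT, which the study's methods name as its test, placed 2 at an adjusted p under 0.05, Osgin1 and Gclc, both higher (4.55%, against 0.384% of all rows). At the study's thresholds CyberT called Osgin1 and Hmox1, for which the share of all rows is not given here. Osgin1 was also the only gene of the 44 with every H2S ventilated mouse above every air ventilated mouse, a pattern seen in 0.691% of all rows. The median log2 difference over the 44 genes was 0.09, beside -0.01 over all rows.

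**Figure D1:**
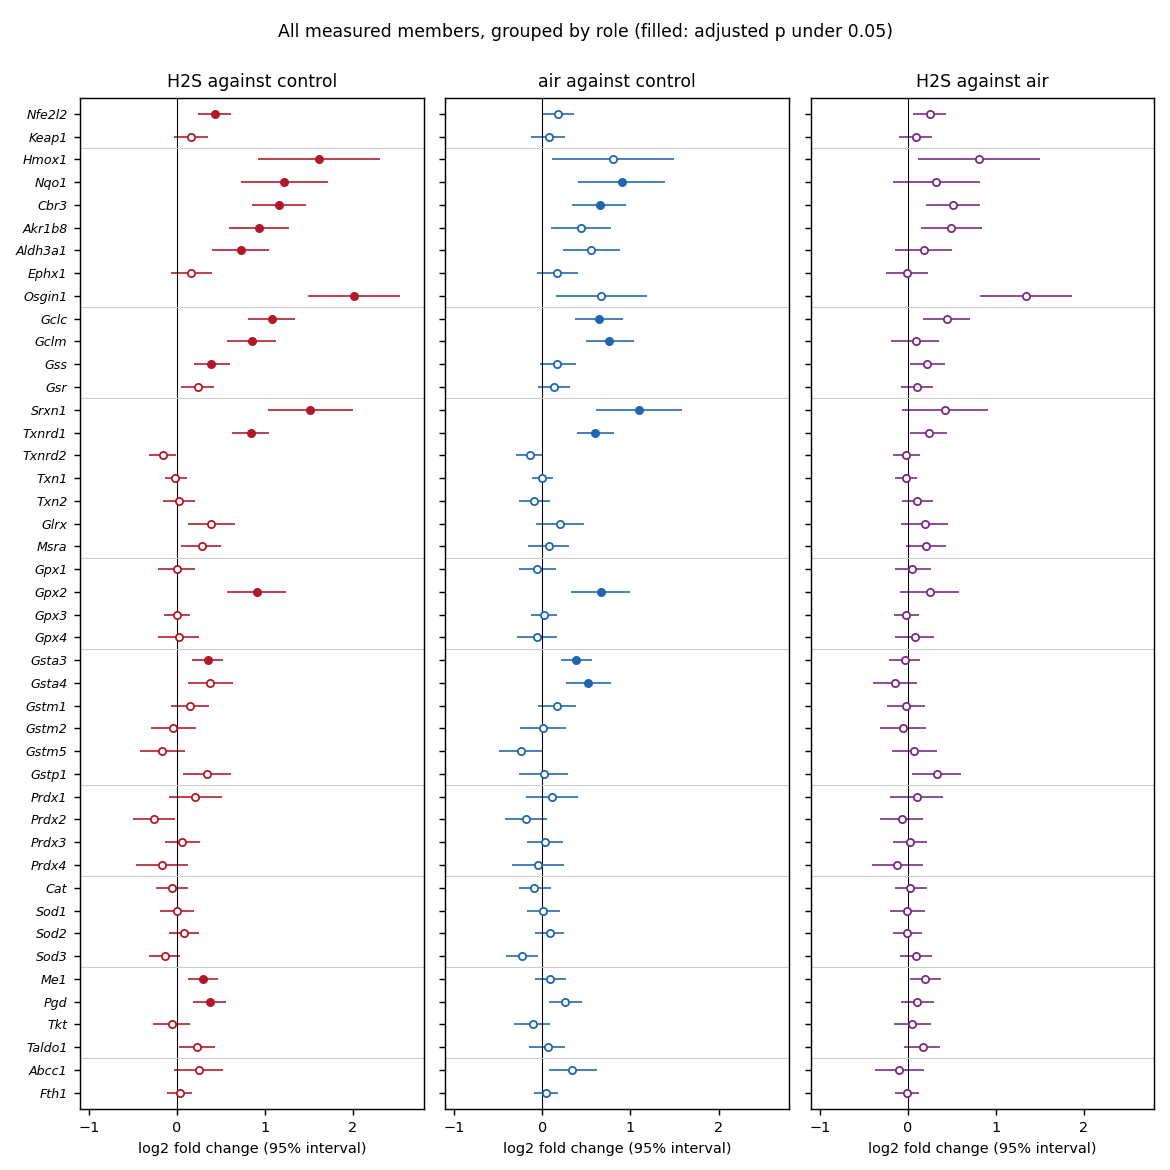
Log2 fold changes (dots) with 95% intervals (bars) of the 44 measured genes, grouped by role, for H2S against control, air against control and H2S against air. Filled dots mark an adjusted p under 0.05, 16 in the H2S against control panel, 9 in the air against control panel and 0 in the H2S against air panel.

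Nfe2l2 itself rose with H2S ventilation. Below, values are intensities and are given in the order of mice 1_4, 4_8, 9_12, 15_20 and 27_28 for H2S ventilation, 6_2, 11_6, 12_10, 34_22 and 35_26 for air ventilation and 5_1, 6_5, 7_9, 12_21 and 13_25 for control. Nfe2l2 was at 4226, 4596, 4525, 3848 and 4633 in H2S ventilated mice and at 3588, 4477, 3415, 3203 and 3795 in air ventilated mice, against 3164, 3300.0, 3369.6, 3156 and 3208 in control mice. The control mice lay close together, every H2S ventilated mouse was above them, and air ventilated mouse 34_22 lay among them. The log2 difference was 0.43 with H2S against control (SE 0.09, adjusted p = 0.0057), 0.18 with air against control (adjusted p = 0.365) and 0.25 between H2S and air (adjusted p = 0.598).

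Keap1, the inhibitor and sensor, was at 509.7, 536, 433, 529.5 and 449.7 in H2S ventilated mice and at 449.9, 413, 485, 506 and 449.6 in air ventilated mice, against 457, 397, 393, 505 and 454 in control mice. All 3 groups overlapped. Its difference between H2S and control was 0.16 in log2 with a 95% interval of -0.03 to 0.35 (adjusted p = 0.37), and air ventilation differed from control by 0.07 (adjusted p = 0.879).

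The heme, quinone and carbonyl enzymes held 5 of the 10 called genes. Of the 7 genes of this group, 6 rose with H2S against control, 5 of them called, and 2 rose with air against control, 1 of them called.

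Hmox1 encodes heme oxygenase 1, which opens heme to biliverdin, iron and carbon monoxide. It was at 1253, 1608, 961, 2201 and 3293 in H2S ventilated mice and at 1258, 524, 780.4, 1109 and 1478 in air ventilated mice, against 483, 453, 411, 835 and 703 in control mice. Each H2S ventilated mouse was above the highest control mouse, whereas air ventilated mice 11_6 and 12_10 were below it. With H2S the log2 difference from control was 1.61 (SE 0.33, adjusted p = 0.00589), a fold of 3.05. Air ventilation differed from control by 0.80 (SE 0.33, adjusted p = 0.25) and H2S from air by 0.81 (SE 0.33, adjusted p = 0.729), neither past the threshold in limma with no covariate. In CyberT Hmox1 was called in both, with adjusted p values of 0.00271 for air against control and 0.0666 for H2S against air, and with the label number set as a block the adjusted p for air against control was 0.0417.

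Osgin1, a growth inhibitor induced by oxidative stress, showed the largest difference among the 44 genes in both comparisons with H2S. Its intensities were 1186, 1429, 971, 2078 and 2752 in H2S ventilated mice and 537, 777, 473, 586 and 778 in air ventilated mice, against 389, 291, 343, 514 and 447 in control mice. Even the lowest H2S ventilated mouse, 9_12, exceeded the highest mouse of either other group, while air ventilated mouse 12_10 lay among the controls. The log2 difference was 2.01 between H2S and control (SE 0.25, adjusted p = 0.000259), a fold of 4.02, and 0.67 between air and control (SE 0.25, adjusted p = 0.189). Between H2S and air it was 1.34 (SE 0.25, 95% interval 0.82 to 1.86, adjusted p = 0.0564), a fold of 2.53. This call was lost without H2S ventilated mouse 4_8 or 27_28 or air ventilated mouse 6_2, 12_10 or 34_22, at log2 differences of 1.37, 1.14, 1.29, 1.24 and 1.32 and adjusted p values of 0.134, 0.107, 0.165, 0.201 and 0.17 in that order. It was also lost within either label number set and when only the H2S and air arrays were fitted (1.34, adjusted p = 0.176). CyberT gave an adjusted p of 3.47e-06. In limma the adjusted p was 0.00393 with the label number set and 0.0432 with runs of 4 label numbers as a block. With array weights it was 0.0192, with a variance trend 0.0227 and without the dimmest 25% of rows 0.0295. For air against control the adjusted p was 0.000796 in CyberT and 0.0491 with the label number set as a block.

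Nqo1, the NADPH quinone reductase that is a standard readout of Nrf2, was at 389, 586, 325, 196 and 283 in H2S ventilated mice and at 272, 385, 235, 217 and 251 in air ventilated mice, against 174, 115, 132, 170.0 and 132 in control mice. Neither ventilated group overlapped with control, and the ventilated groups overlapped with each other. It rose by 1.22 in log2 with H2S (SE 0.23, adjusted p = 0.00398) and by 0.90 with air (SE 0.23, adjusted p = 0.0427), and the H2S against air difference was 0.32 (95% interval -0.17 to 0.82). The call with air was lost without air ventilated mouse 11_6 (0.77, adjusted p = 0.116), control mouse 6_5 (0.82, adjusted p = 0.109) or control mouse 7_9 (0.87, adjusted p = 0.105), and its adjusted p stayed under 0.05 in 4 of the 15 fits that left out a mouse, without H2S ventilated mouse 4_8 or 15_20, air ventilated mouse 34_22 or control mouse 12_21.

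Cbr3, a carbonyl reductase, was at 370.4, 514, 347, 271 and 289 in H2S ventilated mice and at 239, 265, 225, 219 and 282 in air ventilated mice, against 173, 136, 149, 175 and 153 in control mice. No ventilated mouse of either group fell into the control range. The rise was 1.16 in log2 with H2S (SE 0.14, adjusted p = 0.000262) and 0.65 with air (SE 0.14, adjusted p = 0.0184), where the rise with air stayed under the fold of 1.7. Adjusted p values for air were 0.0507, 0.0566, 0.0556 and 0.0557 without air ventilated mouse 11_6 or 35_26 or control mouse 6_5 or 7_9 in that order.

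Akr1b8, an aldo-keto reductase, was at 549, 740.3, 411, 391 and 573 in H2S ventilated mice and at 466, 325, 336, 329 and 404 in air ventilated mice, against 316, 219, 278, 289 and 267 in control mice. Again neither ventilated group reached down into the controls, though air ventilated mice 11_6, 12_10 and 34_22 came close to the highest one. The log2 difference from control was 0.93 with H2S (SE 0.16, adjusted p = 0.00227) and 0.44 with air (SE 0.16, adjusted p = 0.188). Aldh3a1, an aldehyde dehydrogenase, rose by 0.73 with H2S (SE 0.15, adjusted p = 0.00748), and with air the difference was 0.55 (adjusted p = 0.0627). Ephx1, the microsomal epoxide hydrolase, was the member of this group that did not pass, with 0.16 between H2S and control (95% interval -0.07 to 0.40).

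**Figure D2:**
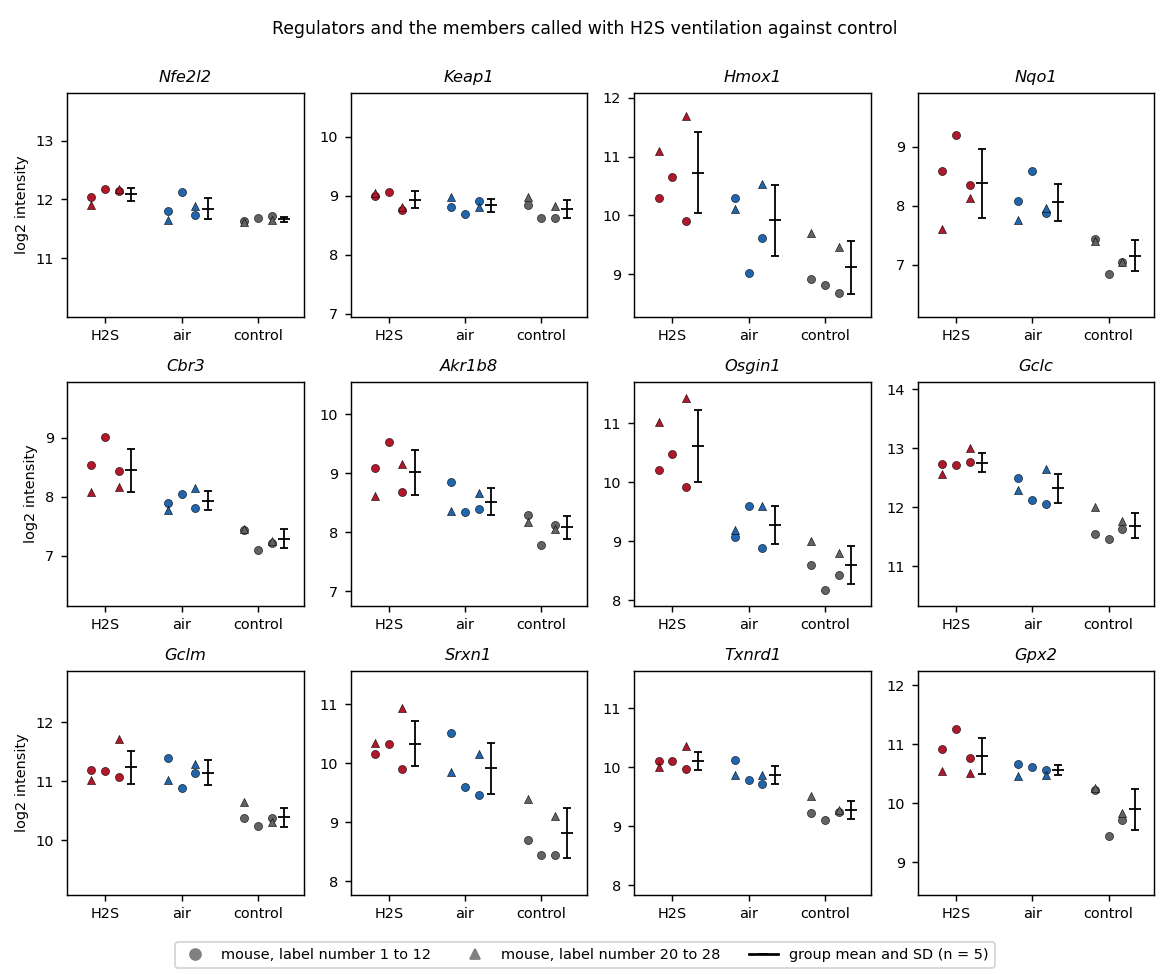
Log2 intensity in each mouse (circles for label numbers 1 to 12, triangles for 20 to 28) with group mean and SD (n = 5), for the regulators Nfe2l2 and Keap1 and the 10 genes called with H2S against control. Each panel spans the same number of log2 units, H2S and control mice do not overlap in any of the 10 called genes, and in Osgin1 H2S and air mice do not overlap either. The 10 genes were picked by H2S against control in these same mice.

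Glutathione is made in 2 steps, of which the first, joining glutamate and cysteine, is rate-limiting and is carried out by the catalytic subunit Gclc with the modifier subunit Gclm. Both subunits rose in both ventilated groups. Of the 4 genes of synthesis and recycling, 3 rose with H2S and 2 with air against control.

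Gclc was at 6862, 6739, 6979.6, 6101 and 8203 in H2S ventilated mice and at 5768, 4437, 4274, 5032 and 6421 in air ventilated mice, against 3001, 2812, 3182, 4121 and 3491 in control mice. Only air ventilated mouse 35_26 reached into the H2S range, above mouse 15_20. The rise was 1.08 in log2 with H2S (SE 0.13, adjusted p = 0.000208), a fold of 2.11, and 0.64 with air (SE 0.13, adjusted p = 0.00951). Between H2S and air the difference was 0.44 (SE 0.13, adjusted p = 0.396 in limma and 0.00508 in CyberT).

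Gclm was at 2345, 2297, 2167, 2089 and 3374 in H2S ventilated mice and at 2707, 1889, 2269.9, 2083 and 2523 in air ventilated mice, against 1319, 1209, 1324, 1608 and 1271 in control mice. Mouse 27_28 stood well above the other H2S ventilated mice, which lay within the air range. With H2S it rose by 0.85 in log2 (SE 0.13, adjusted p = 0.00116) and with air by 0.76 (SE 0.13, adjusted p = 0.00504), close to but under the fold of 1.7. The difference between H2S and air was 0.09 (95% interval -0.19 to 0.36). Without mouse 27_28 the difference between H2S and control was 0.73, under the fold needed for a call, and that between H2S and air became -0.03.

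Gss, the second enzyme of synthesis, rose by 0.39 with H2S (SE 0.10, adjusted p = 0.0178), an adjusted p that was no longer under 0.05 without mouse 27_28, and air ventilation differed from control by 0.17 (adjusted p = 0.477). Gsr, the NADPH-dependent reductase that recycles oxidised glutathione, differed by 0.24 with H2S (adjusted p = 0.114) and 0.13 with air (adjusted p = 0.596).

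In the thioredoxin system the 2 genes that rose were Srxn1 and Txnrd1, in both ventilated groups, while the thioredoxins did not pass the test.

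Srxn1, sulfiredoxin, which repairs overoxidised peroxiredoxins, was at 1135, 1275, 961, 1295 and 1959 in H2S ventilated mice and at 1458, 769, 704, 922 and 1138 in air ventilated mice, against 416, 349.6, 348, 669 and 547 in control mice. The ventilated mice were all above the controls, by the least for air ventilated mouse 12_10. It was called in both comparisons with control, at 1.51 in log2 with H2S (SE 0.23, adjusted p = 0.00106), a fold of 2.86, and at 1.10 with air (SE 0.23, adjusted p = 0.0134), a fold of 2.14. Its adjusted p for air stayed between 0.00663 and 0.0461 when single mice were left out. H2S and air differed by 0.42 (95% interval -0.07 to 0.91).

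Txnrd1, the cytosolic thioredoxin reductase, was at 1094, 1105, 1005, 1034 and 1318 in H2S ventilated mice and at 1114, 878, 841, 931 and 937 in air ventilated mice, against 596, 552, 603, 729.8 and 623 in control mice. The spread within groups was small, and all ventilated mice were above all controls. It rose by 0.84 in log2 with H2S (SE 0.10, adjusted p = 0.000206) and by 0.60 with air (SE 0.10, adjusted p = 0.00402), and H2S and air differed by 0.24 (adjusted p = 0.735).

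The mitochondrial reductase Txnrd2 differed from control by -0.16 with H2S (adjusted p = 0.222) and by -0.14 with air (adjusted p = 0.427). For Txn1, cytosolic thioredoxin, the 95% interval of the difference between H2S and control was -0.14 to 0.11, and for Txn2, its mitochondrial counterpart, -0.16 to 0.21. Glutaredoxin, Glrx, differed by 0.39 with H2S (adjusted p = 0.0767) and the methionine sulfoxide reductase Msra by 0.28 (adjusted p = 0.138).

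Among the glutathione peroxidases only Gpx2, the form known from gut and airway epithelium, rose. It was at 1942, 2437, 1747, 1486 and 1461 in H2S ventilated mice and at 1617, 1558, 1510.2, 1404 and 1429.8 in air ventilated mice, against 1192, 693, 836, 1229.7 and 911 in control mice. The air ventilated mice lay within a narrow band that no control mouse reached. The rise was 0.91 in log2 with H2S (SE 0.16, adjusted p = 0.00236) and 0.66 with air (SE 0.16, adjusted p = 0.0284). For air, leaving out air ventilated mouse 6_2, 11_6, 12_10 or 35_26 or control mouse 6_5, 7_9 or 13_25 moved the adjusted p to 0.075, 0.0667, 0.0667, 0.0547, 0.0738, 0.0857 and 0.0681 in that order. The other 3 were cytosolic Gpx1, secreted Gpx3 and the lipid peroxide reductase Gpx4. They differed from control by 0.00 to 0.02 with H2S and by -0.06 to 0.02 with air. The widest of their 95% intervals with H2S was that of Gpx4, -0.21 to 0.25. A second row annotated to Gpx4 gave 0.02 with H2S (adjusted p = 0.947).

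Of 6 glutathione transferases, which couple glutathione to electrophiles, 1 rose with H2S and 2 with air. Gsta3 was at 2254, 2670.0, 2753, 2288 and 2471 in H2S ventilated mice and at 2544, 2931, 2378, 2331 and 2555 in air ventilated mice, against 2023, 1794, 1977, 2109.5 and 1856 in control mice. Both ventilated groups were above the controls and covered much the same range, with rises of 0.35 with H2S (SE 0.08, adjusted p = 0.0159) and 0.38 with air (SE 0.08, adjusted p = 0.0158). Gsta4, which acts on lipid aldehydes, rose by 0.52 with air (SE 0.12, adjusted p = 0.0222), a result lost without air ventilated mouse 6_2 or 35_26 or control mouse 6_5, 7_9 or 13_25 and with runs of 4 label numbers as a block, and differed by 0.38 with H2S (adjusted p = 0.0639). Gstm1, Gstm2, Gstm5 and Gstp1 differed from control by -0.17 to 0.34 with H2S, none past the test. These families have closely related copies, and the array rows may not separate them fully.

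The peroxiredoxins, which reduce peroxides at the expense of thioredoxin, did not pass in any comparison. The one with the smallest adjusted p was Prdx2, at 2667, 2719.6, 2439, 2508 and 2076 in H2S ventilated mice and 2675, 2599, 3165, 2385 and 2227 in air ventilated mice, against 3707, 2819, 3045, 2683 and 2657 in control mice. The groups overlapped, and the H2S against control difference was -0.26 (SE 0.11, adjusted p = 0.193). A second row annotated to Prdx2 gave -0.17 (adjusted p = 0.481), at a mean log2 value with H2S of 9.38 against 11.27. Between H2S and air the 2 rows gave 0.07 and -0.07 in the same order. Which row matches the gene and not a close copy could not be checked for Prdx2, Prdx1, Gpx4 or Me1. The cytosolic Prdx1, the mitochondrial Prdx3 and the endoplasmic reticulum form Prdx4 differed from control by 0.21, 0.06 and -0.17 with H2S, with adjusted p values of 0.476, 0.814 and 0.569 in that order. The second Prdx1 row gave 0.15 (adjusted p = 0.587).

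Catalase and the 3 superoxide dismutases did not pass either. Cat differed from control by -0.06 with H2S (95% interval -0.24 to 0.13), cytosolic Sod1 by 0.00 (-0.19 to 0.19) and mitochondrial Sod2 by 0.08 (-0.09 to 0.25). The secreted Sod3 was at 1824, 1768, 1691, 1823 and 1629 in H2S ventilated mice and 1387, 1524, 1783, 1687 and 1890.1 in air ventilated mice, against 2111, 1765, 1918, 1937 and 1912 in control mice. Its air ventilated mice were mostly below the controls but overlapped with them, at -0.23 in log2 (SE 0.08, adjusted p = 0.192).

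NADPH feeds both glutathione reductase and thioredoxin reductase. Of 4 measured enzymes around its supply, 2 rose with H2S and none with air. Pgd, 6-phosphogluconate dehydrogenase, was at 2949.5, 3416, 2547, 2782 and 2712 in H2S ventilated mice and at 2857, 2414, 2495, 2765 and 2738 in air ventilated mice, against 2433, 1941, 2135, 2388 and 2225 in control mice. The H2S ventilated mice were all above the controls, and air ventilated mouse 11_6 was not. It rose by 0.37 with H2S (SE 0.09, adjusted p = 0.0172), and with air the difference was 0.26 (adjusted p = 0.157). Me1, malic enzyme, rose by 0.30 with H2S (SE 0.08, adjusted p = 0.0363), which was lost without any one of H2S ventilated mice 1_4, 4_8, 9_12 and 27_28 and control mice 6_5, 7_9, 12_21 and 13_25, and its second row gave 0.28 (adjusted p = 0.0746). The non-oxidative pentose phosphate enzymes Tkt and Taldo1 differed by -0.06 and 0.23 with H2S (adjusted p = 0.818 and 0.193).

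Abcc1, an exporter of glutathione conjugates, was at 587, 670.2, 608, 693 and 849 in H2S ventilated mice and at 909, 547, 674, 747 and 789 in air ventilated mice, against 619, 483, 563, 595 and 598 in control mice. All groups overlapped, at 0.25 between H2S and control (adjusted p = 0.306) and 0.34 between air and control (adjusted p = 0.195). Fth1, ferritin heavy chain, which stores iron, differed from control by 0.03 with H2S (95% interval -0.11 to 0.17).

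**Figure D3:**
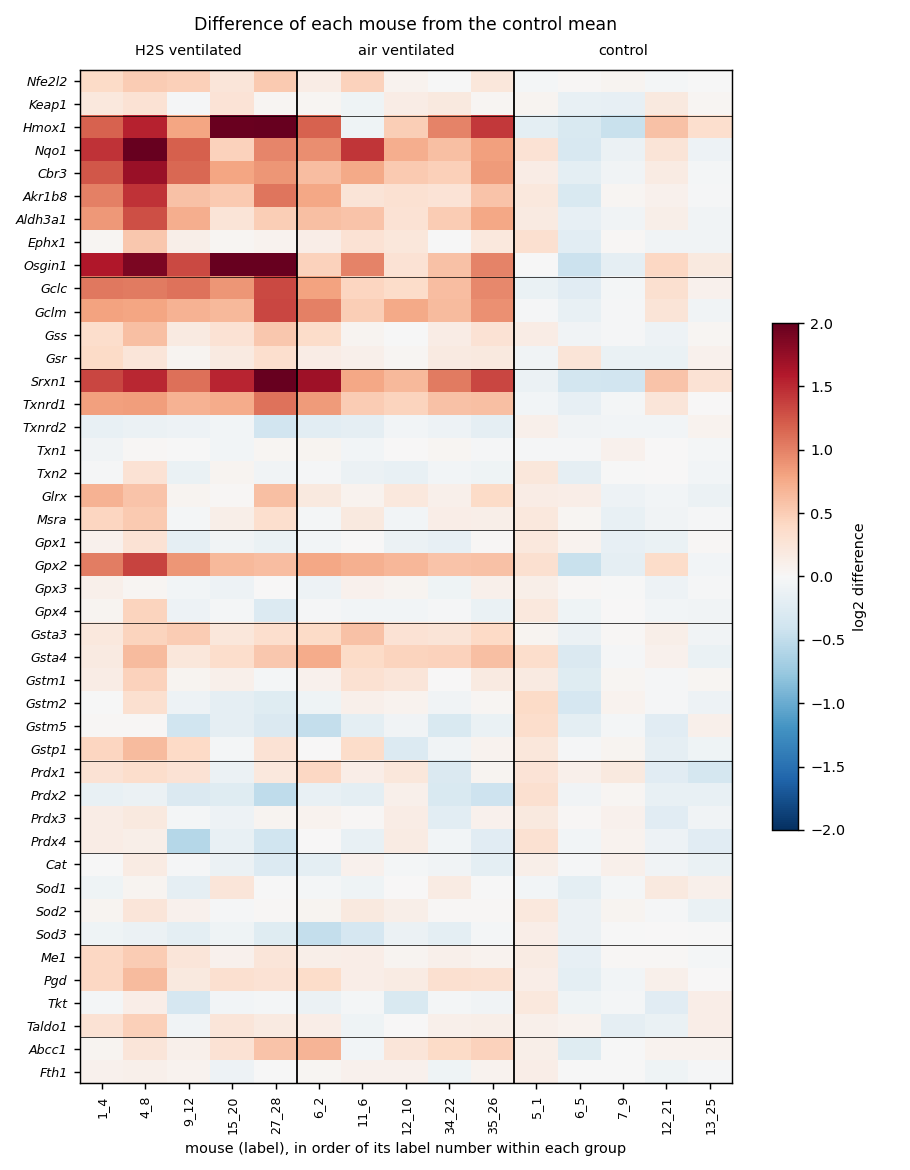
Log2 difference of each mouse from the control mean for the 44 measured genes (rows, by role) in H2S ventilated, air ventilated and control mice (columns, 5 each). The colour scale ends at 2 in either direction, and the red cells of the H2S and air columns fall mainly in the rows of the 10 called genes.

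Single mice differed in how far the called genes moved. Among the 10 genes called with H2S against control, mouse 27_28 was the highest of the H2S ventilated mice in 6 and mouse 4_8 in 4, and mouse 15_20 was the lowest in 5. Among air ventilated mice 6_2 was the highest in 5 and 35_26 in 4. Control mouse 12_21 was the highest control in 8 and mouse 6_5 the lowest in 8.

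Within the mice numbered 1 to 12, at 3 per group, the 10 genes remained called with H2S against control and Aldh3a1 joined them, and 5 genes were called with air. Within the mice numbered 20 to 28, at 2 per group, 1 gene was called with H2S, Osgin1, and 0 with air. The share of all rows called within each set is not given here. With 2 or 3 mice per group, the lower count in mice 20 to 28 is therefore no result about these genes. For Nqo1 the H2S against control difference was 0.65 in mice 20 to 28 and 1.61 in mice 1 to 12, for Cbr3 0.78 and 1.41, and for Gpx2 0.48 and 1.19 in the same order. Those 3 and Aldh3a1 were the genes with an unadjusted p under 0.05 for the difference between the sets in that comparison, at 0.0271 for Nqo1, 0.021 for Cbr3, 0.0253 for Gpx2 and 0.0262 for Aldh3a1, and no row of the table passed after adjustment. For Osgin1 the difference between H2S and air was 1.82 in mice 20 to 28 (adjusted p = 0.29) and 1.02 in mice 1 to 12 (adjusted p = 0.299), not called in either. For this comparison the genes with an unadjusted p under 0.05 for the difference between the sets were Osgin1 at 0.0255, Cbr3 at 0.0361 and Aldh3a1 at 0.0102, and again no row passed after adjustment. With the set as a block the Osgin1 difference between H2S and air was 1.34 with an adjusted p of 0.00393. All 10 genes were higher than control in both sets with either ventilation. They were picked by H2S against control in these same mice, so this sign with H2S is no separate support. The air comparison shares the control mice.

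**Figure D4:**
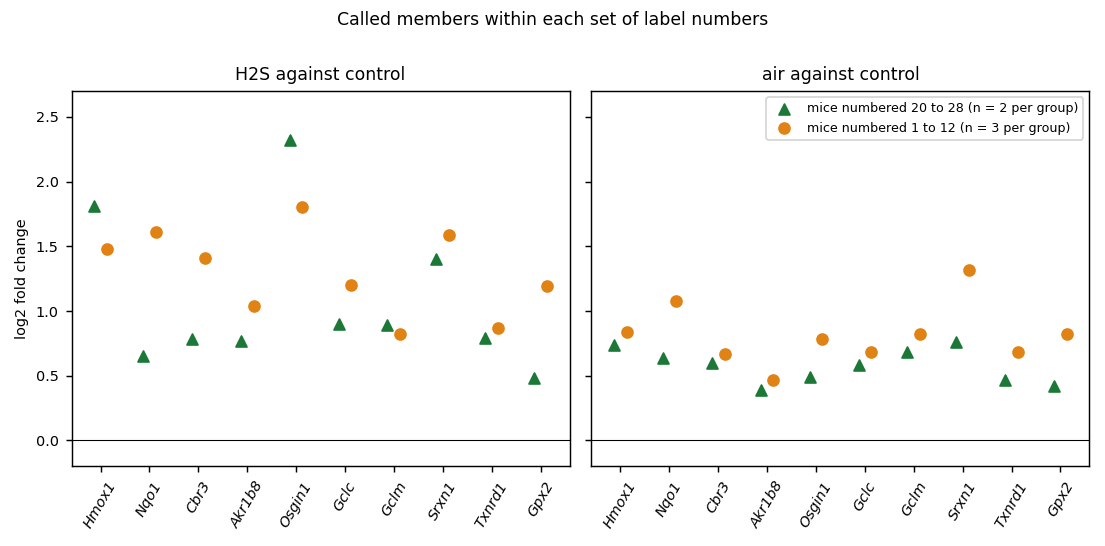
Log2 fold change of the 10 genes called with H2S against control, within mice of label numbers 20 to 28 (triangles, 2 per group) and 1 to 12 (circles, 3 per group), for H2S against control and air against control. Every point is above 0, and Nqo1, Cbr3 and Gpx2 lie further apart between the sets than Gclm or Txnrd1 with H2S. The genes were picked by H2S against control in these same mice.

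The promoters of these genes were searched for TGACNNNGC, the core of the antioxidant response element, on either strand between 250 bases before and 50 bases after the annotated start, in RefSeq sequence of build GRCm38.p6. The core shares its first letters with the AP-1 site TGACTCA, which was not searched. Among the cores found, that of Me1 and, on the other strand, that of Prdx1 contain this site in full. Promoter sequence was given for 36 of the 44 measured genes and for 8 of the 10 called genes, all but Hmox1 and Gclc. The core was present in 3 of these 8 called genes (37.5%), namely Gclm, Srxn1 and Txnrd1, and in 7 of 28 other measured genes (25%), Gsta3, Gstm5, Me1, Nfe2l2, Pgd, Prdx1 and Sod1, beside 14% of all genes with a promoter. Followed by an A, it was present in 1 of 8, 2 of 28 and 3.45% of all. A match is a description of these letters, and elements further away were not looked at. The stretches around the core in the 3 called genes, and in 3 genes of other roles that hold it, are shown on the strand of the gene with the core in capitals (its reverse complement where the core lies on the other strand). They begin with Gclm, at chr3:122245403-122245451 (+), with the core from base -134, Txnrd1, at chr10:82859094-82859142 (+), from -92, and Srxn1, at chr2:152105542-152105570 (+), from base 29. The others are Nfe2l2, at chr2:75704875-75704913 (-), from -240, Gsta3, at chr1:21240444-21240492 (+), from -121, and Prdx1, at chr4:116685446-116685494 (+), from -133.
Gclm: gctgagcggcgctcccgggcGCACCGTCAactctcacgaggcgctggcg
Txnrd1: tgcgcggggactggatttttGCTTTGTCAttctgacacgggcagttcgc
Srxn1: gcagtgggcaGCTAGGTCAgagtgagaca
Nfe2l2: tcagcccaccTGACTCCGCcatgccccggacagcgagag
Gsta3: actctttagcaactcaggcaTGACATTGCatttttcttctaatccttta
Prdx1: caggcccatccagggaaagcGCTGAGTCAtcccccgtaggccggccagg

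Other genes of the pathway were counted beside all rows, of which 3.92% rose and 3.93% fell with H2S, and 1.56% and 1.89% with air. Of 13 Nrf2 control proteins and small Maf partners, which include Nfe2l2 and Keap1, 6 rose and 1 fell with H2S, and 4 rose with air. The small Maf genes, whose products pair with Nrf2 or with repressors, rose: Maff by 1.81 with H2S (adjusted p = 4.01e-05) and 1.00 with air (adjusted p = 0.00522), Mafk by 0.68 (adjusted p = 0.000208) and 0.45 (adjusted p = 0.00571), and Mafg by 0.52 (adjusted p = 0.000618) and 0.31 (adjusted p = 0.0271). Sqstm1, the autophagy adaptor p62 that binds Keap1, rose by 0.54 with H2S (adjusted p = 0.000693) and 0.36 with air (adjusted p = 0.0155). Bach1, a repressor that competes with Nrf2 for these elements, rose by 0.38 with H2S (adjusted p = 0.00244), and Btrc, a ubiquitin ligase subunit acting on Nrf2, fell by 0.28 (adjusted p = 0.0161). Bach1 and Btrc are named after their values were seen.

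Of 9 measured genes of cystine uptake and transsulfuration, 4 rose with H2S and 3 with air. Slc7a11, the cystine importer that supplies cysteine for glutathione, was higher by 2.40 with H2S (SE 0.48, adjusted p = 0.00523) and by 1.84 with air (SE 0.48, adjusted p = 0.0445), and its partner Slc3a2 by 0.42 (adjusted p = 0.0015) and 0.28 (adjusted p = 0.0322). Cth, cystathionine gamma-lyase, which makes cysteine and also endogenous H2S, rose by 0.56 with H2S (adjusted p = 0.0045) and 0.51 with air (adjusted p = 0.0146). Chac1, which degrades glutathione, was the one gene of the list that rose with H2S against air, with a difference of 0.88 (SE 0.15, adjusted p = 0.0317), and it rose by 1.10 with H2S against control (adjusted p = 0.000507). Of 23 further Nrf2 targets, 3 rose with H2S, namely Slc7a11 (also in the list before), the esterase Esd by 0.64 (adjusted p = 0.0026) and ferritin light chain Ftl1 by 0.33 (adjusted p = 0.00858), and 2 rose with air, Slc7a11 and Esd. None of 13 oxidant-producing enzymes rose with H2S, and 2 fell, the NADPH oxidase genes Nox1 by 0.71 (adjusted p = 0.00469) and Cybb by 0.69 (adjusted p = 0.0169). Nox1 also fell with air, by 0.79 (adjusted p = 0.00557). The median differences from control with H2S were 0.16, 0.32, 0.14 and 0.03, beside 0.00 over all rows. With air they were 0.14, 0.26, 0.00 and -0.09, beside 0.01 over all rows. The order is control proteins, cystine genes, further targets and oxidant-producing enzymes.

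Cell type markers were counted as well. Of all rows, 3.92% rose and 3.93% fell with H2S, and 1.56% rose and 1.89% fell with air. Of 11 alveolar macrophage markers 5 rose with H2S, and 2 rose and 1 fell with air, and their summed intensity was 14804 to 16569 in H2S ventilated, 13714 to 14969.8 in air ventilated and 12537 to 14832 in control mice. Of 13 neutrophil markers 3 rose with H2S and 2 with air. Their sums were 10484 to 19988, 11850.1 to 17089 and 7012 to 12333 in the same order. Bronchoalveolar lavage fluid was collected from the mice at the end, and any cells removed with it are not in these sums. All 10 measured B cell markers fell in both ventilated groups, with sums of 1423 to 2672, 1530.0 to 3472 and 3675 to 6259. Of 10 endothelial markers 3 fell with H2S and 2 with air, with sums of 31396 to 34601, 31942 to 33852 and 34722 to 38794. Of 10 monocyte markers 1 rose and 2 fell with H2S and 1 fell with air, with sums of 11574 to 12949, 10269 to 11438 and 10135 to 13999. Median log2 differences from control, with H2S and air, were 0.24 and 0.22 for alveolar macrophage and 0.50 and 0.22 for neutrophil markers. They were -0.10 and -0.16 for endothelial and -0.29 and -0.44 for monocyte markers. For B cell markers the median was -0.89 with air and lower still with H2S.

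In the remaining lists, with H2S, 1 of 8 club cell, 2 of 11 ciliated cell, 2 of 8 alveolar type I and 2 of 11 fibroblast and smooth muscle markers fell, 1 of 9 alveolar type II markers rose and 1 fell, and 0 of 4 erythroid and 0 of 11 T and NK cell markers passed. With air 0 members of these lists passed, nor did any of 9 housekeeping genes in either comparison. Club cell sums were 37521 to 43664 in H2S ventilated, 36773 to 41508 in air ventilated and 36261 to 45069 in control mice. In the same order, sums were 5369 to 7810.1, 6217 to 7099 and 7088 to 9591 for ciliated cells, 26081 to 29277, 26387 to 29512 and 27938 to 31585 for alveolar type I cells, 17516 to 19773, 16889 to 20223 and 18027 to 21683 for fibroblasts and smooth muscle, and 1963 to 4003, 1947 to 5705 and 3528 to 5739 for T and NK cells. Median differences from control were, with H2S and air, 0.01 and -0.05 for club and -0.09 and 0.04 for ciliated cell markers. They were 0.03 and 0.00 for alveolar type II, -0.06 and -0.04 for alveolar type I, and -0.15 and -0.23 for fibroblast and smooth muscle markers. Erythroid markers were at -0.04 and -0.32, T and NK cell markers at -0.40 and -0.39, and housekeeping genes at 0.00 and -0.02. No value of the table was 0, the lowest being 0.62. The part of these cell types in the results for the antioxidant genes was not tested.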

How the data were processed

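Gene expression in 15 lung lobes was measured on Affymetrix arrays. The authors read the arrays with Command Console, subtracted a background estimated from anti-genomic probes of like GC content, quantile normalised and summarised probes by RMA in Genedata Expressionist Refiner, and deposited intensity values on a linear scale per transcript row. The annotation was NA32, main and unmapped transcripts. These intensities were log2 transformed here, since the values had been taken for log2 when the tests were chosen. Of the 28361 rows, 21780 have 1 gene symbol, 1617 several and 4964 none given here, and 0 columns were left out.

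Moderated tests (lmFit, contrasts.fit and eBayes of limma 3.58.1, under R 4.3.3) were run on all rows and arrays with no covariate, with Benjamini-Hochberg adjustment over all rows for each comparison, and the step was tested on simulated data. Calls needed p no higher than 0.005, adjusted p no higher than 0.1 and 1.7-fold change or more. Intervals are 95%. Genes named in full are Nfe2l2, Keap1, the called genes and, per role, the gene with the smallest adjusted p. Of the other lists, up to 4 genes with the smallest adjusted p with H2S were named. The genes, lists and tests were chosen with earlier results of these data known. Each list is described by its counts and its median differences from control. The B cell median with H2S is given only as lower than that with air.

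Alternatives were CyberT (confidence 15, window 101), the fold from medians, 2 groups only, array weights, variance priors, a filter on dim rows, other normalisations, other rows per gene, an offset of 50, label number sets and runs of 4 label numbers as a block, and leaving out each mouse. Same-run mice of different groups correlated at -0.179 to 0.358 in their deviations from the group means (10 of 13 pairs over 0.1). The mean was 0.179, against -0.0374 for mice of different runs and groups. Mice of a run thus tended to deviate alike, but the meaning of the numbers is not given. The fit reported first has no pairing, and runs were a block only in an alternative. Motifs and plots were made in Python 3.11.15 with matplotlib 3.10.9.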

Additional observations from a re-analysis of the deposited data

Results flagged for a closer look

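One value lay apart from its group: Gclm had an intensity of 3374 in H2S ventilated mouse 27_28, against 2089 to 2345 in the other 4 mice of that group, a gap that, in log2 values, took up 0.759 of the whole range where 0.71 is the critical value for 5 mice. Among the 51 groups of 5 mice looked at (17 genes in 3 groups) this was the only one, and chance gives about 1 in 20.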

How the results depend on the processing

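Over 31 alternative settings, 15 of which left out a mouse, 1504 of 1581 values of single genes kept their direction and side of an adjusted p of 0.05, 50 lost it, 19 gained it and 8 changed sign, all 8 of them not past the threshold. The fold from medians kept the adjusted p of the first fit, so it could change only a sign. For H2S against air, with 527 of the values, no gene was past the threshold in the first fit, so none could be lost. By comparison, 34 losses, 7 gains and 2 sign changes were for air against control, 16 losses for H2S against control, and 12 gains and 6 sign changes for H2S against air. For H2S against air the count of called genes was 2 with CyberT (Osgin1 and Hmox1) and 0 with only the 2 groups compared or within either label number set. Its count at an adjusted p under 0.05 was 2 with CyberT and 1, Osgin1, with array weights, a variance trend, without the dimmest 25% of rows, with the mean of the rows of a gene, 1 row per gene, the number set as a block, runs of 4 label numbers as a replicate block or an offset of 50. The Osgin1 difference was 1.34 (adjusted p = 0.176) with only 2 groups, 1.02 in mice 1 to 12 and 1.82 in mice 20 to 28. In mice 1 to 12 alone, 5 genes were called with air and 4 passed an adjusted p of 0.05. In mice 20 to 28 alone, 1 gene was called with H2S against control and 0 with air, and in both comparisons 0 passed an adjusted p of 0.05, with 2 mice per group. The share of all rows called within a set is not given here. With an offset of 50, 1 gene was called with air, Nqo1 being lost.

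When single mice were left out, called genes numbered 0 to 1 for H2S against air, 10 to 11 for H2S against control and 1 to 3 for air against control, and genes at an adjusted p under 0.05 numbered 0 to 1, 14 to 18 and 5 to 10 in the same order. The Osgin1 difference between H2S and air was 1.14 to 1.51. The count of 5 was reached without air ventilated mouse 35_26 or control mouse 6_5 or 7_9, and the count of 1 called without control mouse 6_5 or 7_9. With runs of 4 label numbers as a replicate block, Aldh3a1 joined the calls with H2S against control (11) and Hmox1 those with air (3), and at an adjusted p under 0.05 Glrx and Gstp1 were gained with H2S (18) and Gsta4 lost with air (8).

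Small differences changed sign: Keap1 for air against control to -0.01 with the fold from medians and in mice 20 to 28, Prdx2 for H2S against air to 0.00 with the mean of its rows, and Sod3 and Pgd for H2S against air to -0.05 and 0.00 in mice 20 to 28. For H2S against air, without single mice, Gclm lay between -0.03 and 0.15, Gsta3 between -0.07 and 0.02 and Prdx2 between -0.12 and 0.00. The cause of these changes was not tested. Array number, at 5 per group, limits what could be resolved between H2S and air.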
